A study of Mus musculus with 72 samples.

Results

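Respiratory complex I (NADH:ubiquinone oxidoreductase) is the large enzyme of the inner mitochondrial membrane through which electrons from NADH enter the respiratory chain. It passes them to ubiquinone and pumps protons out of the matrix. Its subunits come from nuclear and mitochondrial genes, which must be assembled together. Core subunits carry the catalysis, and accessory subunits surround them and are needed for assembly or stability. Cardiac muscle is among the tissues richest in mitochondria, and neurons also depend strongly on oxidative phosphorylation. The genes described here are 35 nuclear genes of complex I subunits, of 53715 gene identifiers counted in each library. They were chosen by name, with earlier results of these data known. All 35 were matched by symbol and passed the filter on low counts in every comparison. By role they are 6 core subunits, 9 accessory subunits of the matrix arm, 9 of the proximal membrane arm, 10 of the distal membrane arm, and the acyl carrier protein Ndufab1.

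RNA-seq had been carried out on 72 libraries from 18 male mice of 18 weeks, with 6 libraries in each of 12 groups of tissue and genotype. Atria and ventricles were taken from Gnb5-/-, Gnb5+/- and Gnb5+/+ mice, and cerebellum, hippocampus and cerebral cortex from Gnb5-/- and Gnb5+/+ mice only. All mice were C57BL/6J. The knockout allele lacks exon 3 of Gnb5, which encodes a G protein beta subunit, in the germline and thus in every cell, and no group received a treatment. Tissues were whole dissections, and the atria included the sinoatrial and atrioventricular nodes, so fewer cells of a type and less RNA per cell cannot be told apart. The libraries held 29204390 to 48807435 reads counted on genes. Values per library are given as normalized counts, which are library-size scaled counts (CPM) after TMM scaling over all 72 libraries. The Gnb5 normalized count was 27.0 to 113 over the Gnb5+/+ libraries and 0.858 to 16.1 over the Gnb5-/- libraries, and within each tissue the genotypes did not overlap. Muscle and neural marker genes followed the tissue labels. All 4 atrial muscle markers were higher in atria and all 3 ventricular muscle markers were higher in ventricles. All 4 neuronal markers were higher in brain.

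In 4 libraries the complex I genes stood far apart from the rest of their tissue: Gnb5-/- cortex replicates 3 and 5, Gnb5-/- cerebellum replicate 2 and Gnb5+/- ventricles replicate 4. The 35 genes took 0.817% and 0.305% of the counts in those cortex libraries, and 0.167% to 0.1845% in the other cortex libraries. They took 0.603% in that cerebellum library, against 0.177% to 0.201% in the others, and 0.962% in that ventricular library, against 0.477% to 0.719%. The same libraries tilted over all protein-coding genes by transcript length. Genes whose longest transcript was under 1000 bases lay 0.66 to 1.85 above their tissue median on the log2 scale in the 4 libraries, and genes of 4000 bases or more lay 0.26 to 0.67 below it. In the other 68 libraries both classes stayed within -0.18 and 0.14. Reads on no annotated gene were also fewer in the 4 libraries than in the others of their tissues, at 6.86% and 8.32% in cortex, 8.02% in cerebellum and 2.85% in ventricles. Of the 35 members, 17 have a longest transcript under 1000 bases. What brought the tilt about was not tested. The counts and medians of the genotype comparisons that hold these libraries are therefore given with and without them. The libraries from other tissues of the same mice did not stand apart.

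**Figure D1:**
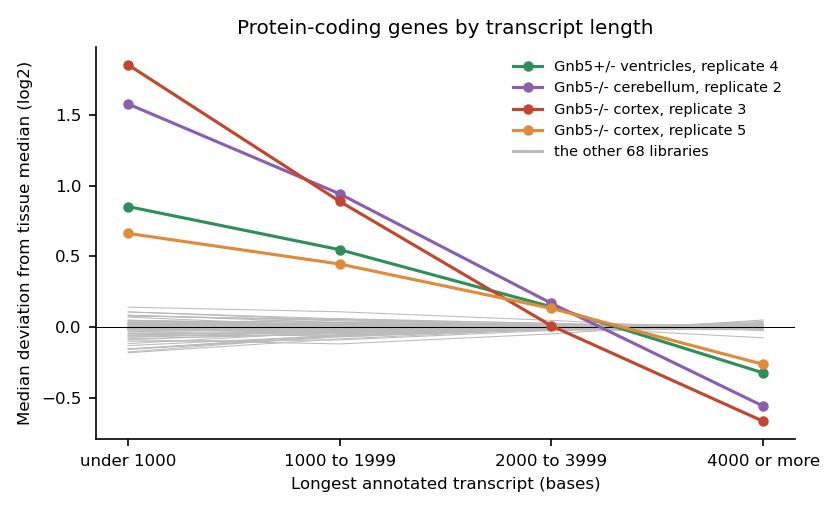
Median deviation of protein-coding genes from their tissue median (log2, y axis) in classes of longest annotated transcript (bases, x axis), with a line for each of 72 libraries. The 4 coloured libraries rise by 0.66 to 1.85 in genes under 1000 bases and fall in genes of 4000 bases or more, while the other 68, in grey, stay within -0.18 and 0.14.

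Within those libraries the shift of the members followed length in the same order. In Gnb5-/- cortex replicate 3 the median deviation from the mean of the group's libraries that did not stand apart was 2.55 on the log2 scale for the 17 members under 1000 bases, 2.02 for the 10 members from 1000 to under 2000 bases and 1.65 for the 8 members of 2000 bases or more. The member that moved least there was Ndufs1 with 0.39, and the one that moved most was Ndufa2 with 3.51. In Gnb5-/- cerebellum replicate 2 the medians of the same classes were 1.96, 1.62 and 1.02, and Ndufb2 lay below the other libraries, at -0.29. In Gnb5-/- cortex replicate 5 they were 0.89, 0.75 and 0.54, and in Gnb5+/- ventricles replicate 4 they were 1.10, 0.91 and 0.72. The longest annotated transcript is not always the main one. That of Ndufb7 (4435 bases) keeps an intron, while its principal transcript has 623 bases. Ndufb7 moved most among the members of 2000 bases or more in cortex replicate 3 (2.76), cerebellum replicate 2 (1.87) and ventricles replicate 4 (1.22).

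**Figure D2:**
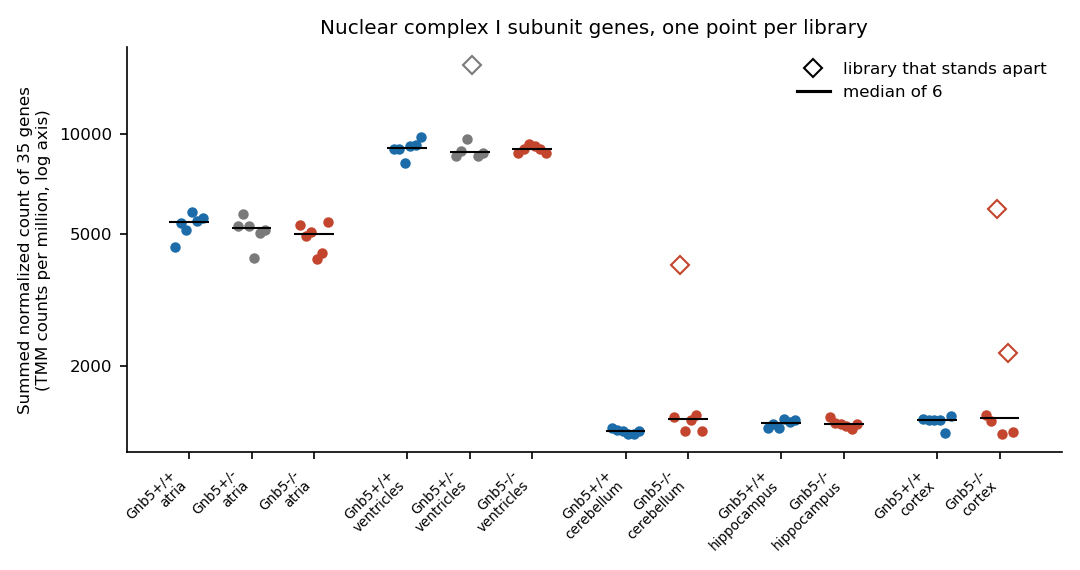
Summed normalized count of the 35 genes (TMM CPM, log axis) in every library, by tissue and genotype, with the median of each group of 6 as a line. Ventricles lie above atria and both lie above the brain regions, and the 4 open diamonds are the libraries that stood apart, the highest of them at 16127 in Gnb5+/- ventricles.

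The level of complex I transcripts differed first of all by tissue. The summed normalized count of the 35 genes in Gnb5+/+ mice had a median of 9112 in ventricles (8162 to 9832), 5446 in atria (4565 to 5842), 1375 in cortex (1251 to 1415), 1346 in hippocampus (1296 to 1378) and 1272 in cerebellum (1245 to 1302). Ventricles, atria and the brain regions did not overlap. The 3 brain regions lay close together, and cortex overlapped with both others.

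Heart was compared with brain in the Gnb5+/+ mice as the mean of both heart tissues against the mean of the 3 brain regions. Of the 35 members 34 were higher in heart and 1, Ndufb2, was lower, with a median log2 difference of 2.23 against -0.22 over all 19477 genes tested. In this contrast 40.7% of all genes tested were called higher and 50.2% lower, by edgeR's quasi-likelihood test at an adjusted p below 0.05. Protein-coding genes outside the mitochondrial genome with a longest transcript under 1000 bases had a median of 0.86, and the 17 members among them 2.21. In genes of 4000 bases or more the median was -0.34, and 0.75 in the 2 members there. All 6 core subunits were higher. Ndufs1, the largest subunit of the NADH-oxidizing module, showed the largest difference among them (2.75 ± 0.034, SE) and Ndufs3, a subunit of the ubiquinone-reducing module, the smallest (1.84 ± 0.045). Between them lay Ndufv2 (2.54 ± 0.057), which carries an iron-sulfur cluster, Ndufs8 (2.24 ± 0.049), a subunit with iron-sulfur clusters, Ndufv1 (2.22 ± 0.060), the subunit that binds NADH and flavin, and Ndufs7 (2.10 ± 0.083), which holds the last iron-sulfur cluster before ubiquinone.

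The normalized count of Ndufs1 in Gnb5+/+ mice was 1004.5 to 1142.9 in ventricles (median 1031), 568 to 735 in atria (median 629.7), 125 to 133 in cerebellum (median 128), 116 to 127 in hippocampus (median 124) and 103 to 111 in cortex (median 104.5). The heart libraries were all above the brain libraries, ventricles and atria did not overlap, and cortex was the lowest tissue, with no overlap with cerebellum or hippocampus.

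The other core subunits followed the same order of heart above brain. Ndufv1 was at 486 to 824 in Gnb5+/+ ventricles (median 732), 296 to 431 in atria (median 398) and 98.7 to 118 over the brain libraries. Ndufv2 was at 394 to 575 in ventricles (median 479), 194 to 355 in atria (median 266) and 55.2 to 66.4 in brain. Ndufs3 was at 217 to 297 in ventricles (median 221), 98.6 to 131 in atria (median 128) and 42.1 to 48.1 in brain. For each of them no atrial library reached the ventricular range and no brain library the atrial range. Ndufs7 was at 156 to 317 in ventricles (median 278), 77.6 to 153 in atria (median 127) and 35.3 to 46.6 in brain. Ndufs8 was at 166 to 233 in ventricles (median 214), 111 to 149 in atria (median 133) and 29.5 to 40.3 in brain. Both kept the same order of tissues without overlap.

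Among the accessory subunits the largest difference of all was that of Ndufs6, a zinc-binding subunit of the matrix arm that is needed for a late step of assembly. Ndufs6 was higher in heart by 3.19 ± 0.049 on the log2 scale. Its normalized count was 219 to 276 in ventricles (median 256), 74.7 to 113 in atria (median 98.2), 16.7 to 22.7 in cortex (median 21.5), 14.99 to 16.2 in hippocampus (median 15.9) and 13.6 to 15.8 in cerebellum (median 14.04). Its ventricular libraries thus stood above every atrial library, and every atrial library above every brain library. Next came Ndufb10 of the distal membrane arm (3.00 ± 0.053), Ndufb8 of the same arm (2.68 ± 0.061) and Ndufa8 of the proximal membrane arm (2.67 ± 0.038). The smallest rises were those of Ndufc2 (1.30 ± 0.060), Ndufb6 (1.32 ± 0.081), Ndufb4 (1.45 ± 0.068) and Ndufa7 (1.62 ± 0.057). By role the medians were close, from 2.20 for the accessory subunits of the matrix arm to 2.36 for those of the proximal membrane arm.

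Ndufb2, a small subunit of the distal membrane arm, went the other way, with a log2 difference of -0.73 ± 0.074 (adjusted p = 9.42e-11). Its normalized count was 28.6 to 37.2 in cerebellum (median 34.0), 17.4 to 22.1 in hippocampus (median 21.2), 14.7 to 19.7 in cortex (median 17.7), 14.1 to 21.9 in ventricles (median 16.4) and 9.85 to 16.5 in atria (median 11.01). The cerebellum stood above all other tissues, while ventricles overlapped with hippocampus and cortex, and atria with ventricles and cortex. The count of Ndufb2 may hold reads of other genes, since its exons overlap those of Braf and Gm16272 on the opposite strand over 302 bases and those of Gm42420 on its own strand over 145 bases. Its annotated exons cover 5628 bases. The strand setting of the counting is not given in the sources used here, and the part of these overlaps in the count was not tested.

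**Figure D3:**
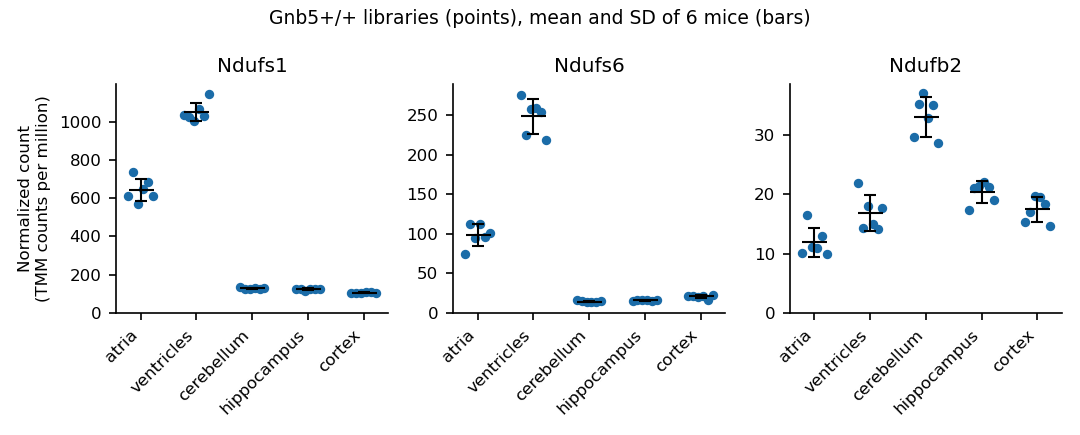
Normalized counts (TMM CPM) of Ndufs1, Ndufs6 and Ndufb2 in the Gnb5+/+ libraries of 5 tissues, with the mean and SD of 6 mice as bars. Ndufs1 and Ndufs6 are highest in ventricles (medians 1031 and 256), and Ndufb2 is highest in cerebellum (median 34.0).

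Atria were compared with ventricles in the same Gnb5+/+ mice. All 35 members were lower in atria, with log2 differences from -1.28 to -0.26 and a median of -0.75, against a median of 0.07 over all genes tested. In this contrast 21.8% of all genes tested were called lower and 29.8% higher. For 31 of the 35 the highest atrial library lay under the lowest ventricular library, which held for 11.7% of all genes tested. The exceptions were Ndufa11, Ndufa13, Ndufb2 and Ndufc2. All of them belong to the membrane arms.

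Ndufs6 again stood at the end of the range, with a log2 difference of -1.28 ± 0.075 (adjusted p = 2.60e-15). After it came Ndufs7 (-1.02 ± 0.131), Ndufc1 (-0.99 ± 0.156), Ndufa9 (-0.98 ± 0.053) and Ndufs4 (-0.97 ± 0.071). Ndufa9 stabilizes the junction of the matrix and membrane arms, and Ndufs4 is an accessory subunit whose loss in mice gives a Leigh-like disease. The value of Ndufc1 includes 1 library, Gnb5+/+ ventricles replicate 6, where it lay 0.93 above the group mean (log2), the most of all members. The other core subunits fell between -0.88 ± 0.070 for Ndufs3 and -0.58 ± 0.076 for Ndufs8, with Ndufv2 at -0.80 ± 0.088, Ndufv1 at -0.79 ± 0.094 and Ndufs1 at -0.66 ± 0.053.

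The smallest difference was that of Ndufa13, also known as Grim19, a membrane arm subunit that was first described as a regulator of cell death. It was lower by -0.26 ± 0.077 (adjusted p = 0.00595), with 209.6 to 292 in atria (median 261) and 265 to 345 in ventricles (median 322), so the tissues overlapped. Ndufc2 (-0.40 ± 0.095), Ndufa1 (-0.44 ± 0.093), Ndufb2 (-0.46 ± 0.115) and Ndufa11 (-0.47 ± 0.098) came next. The proximal membrane arm held 4 of the 5 smallest differences.

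Markers of other cells also differed between these tissues. In Gnb5+/+ mice the summed normalized count of 5 fibroblast markers was 1801 to 2585 in atria and 1184 to 1535 in ventricles, with 4 of the 5 called higher in atria. The sum of 4 macrophage markers was 205 to 263 and 124 to 167, with all 4 called higher. The sum of 4 neuronal markers was 234 to 329 in atria and 23.3 to 46.4 in ventricles, though 3 of the 4 had a median under 1 in each. That of 3 microglia markers was 23.9 to 40.4 and 10.8 to 18.7. Lists of vessel cells went the other way. The sum of 3 smooth muscle markers was 83.9 to 169 in atria and 178 to 318 in ventricles. That of 4 endothelial markers was 750 to 961 (median 850) and 928 to 1168 (median 1105). The sum of 5 cardiomyocyte markers was 41396 to 46272 and 45636 to 57253, with 2 of the 5 called lower. None of these markers was at 0 in all libraries of a group, and their part in the complex I differences was not tested.

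The size of these differences depended on the scaling of the libraries. Mitochondrially encoded genes took 1.76% to 4.90% of the counts in the brain libraries, 14.1% to 34.5% in atria and 26.5% to 44.8% in ventricles. With library totals alone as the scale, the median of all genes moved to 0.46 and the median of the members to -0.36 between atria and ventricles. There 23 of the 35 members were still called lower, none was called higher, and Ndufa13 stood at 0.13. Between heart and brain the median of all genes was then -1.08 and that of the members 1.38, with the same count of 34 higher and 1 lower. A change of scale moves all genes of a contrast by nearly the same amount. The distance between the members and the median of all genes was thus nearly fixed beforehand in both contrasts and is no test of the scaling.

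The Gnb5-/- mice are separate animals in which the same tissues can be compared. Without the 3 Gnb5-/- brain libraries that stood apart, all 35 members were called in the same direction as in Gnb5+/+ mice, both between atria and ventricles and between heart and brain. The medians were -0.90 and 2.25. In these mice 26.8% of all genes tested were called lower and 29.7% higher in atria, and 42.4% were called higher and 48.2% lower in heart. Ndufs6 was again the member with the largest difference between atria and ventricles (-1.69 ± 0.101), and Ndufb2 was again lower in heart (-0.76 ± 0.071). With all libraries 23 of the 35 were called lower in atria. The heart libraries were the same in both fits, which estimate 1 spread over all tissues.

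**Figure D4:**
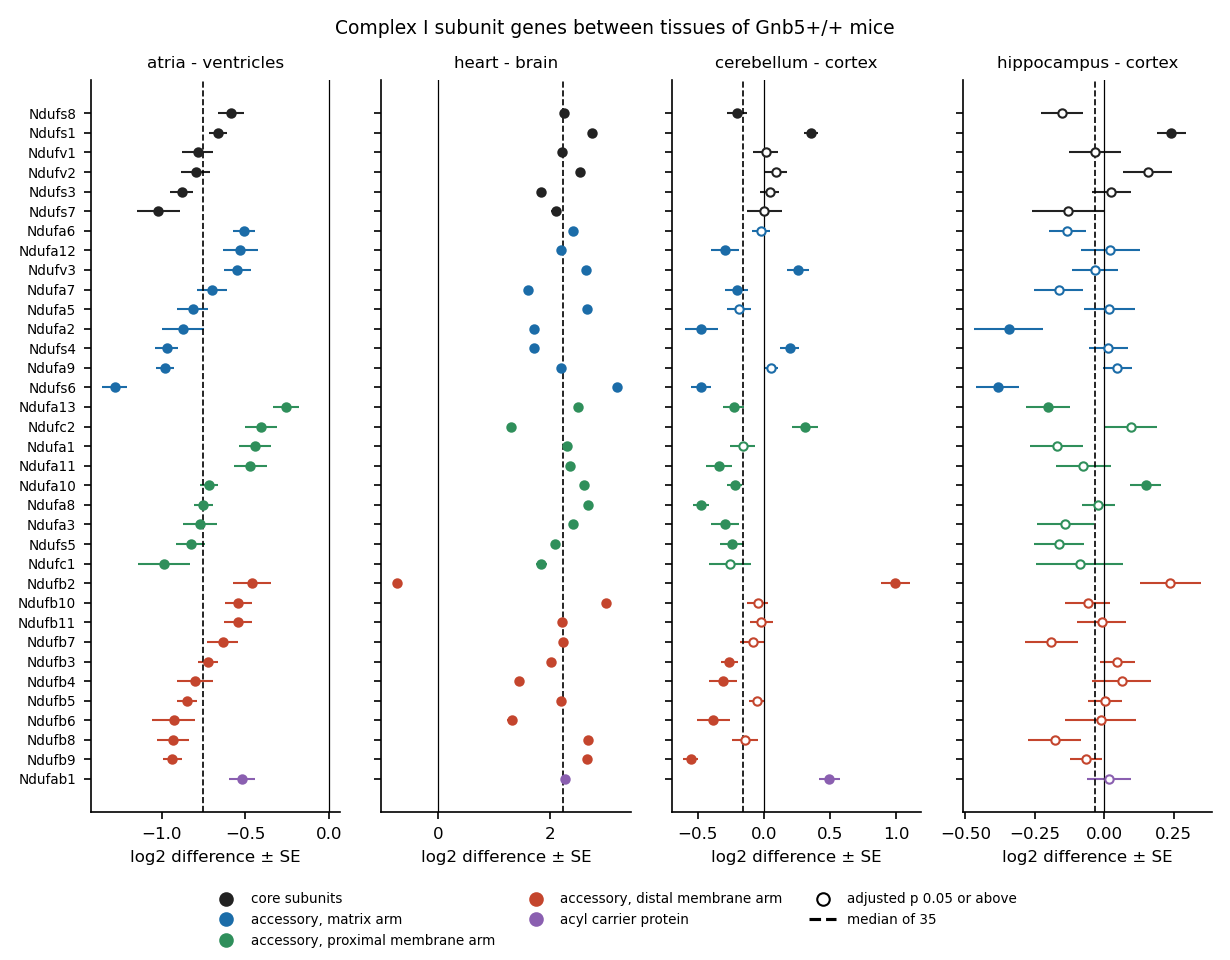
Log2 differences (x axis, ± SE) of each of the 35 genes in 4 comparisons between tissues of Gnb5+/+ mice, coloured by role, with open points where the adjusted p was 0.05 or above and a dashed line at the median of the 35. All points lie left of 0 for atria minus ventricles, and all but Ndufb2 lie right of 0 for heart minus brain.

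Between the brain regions the members split. In cerebellum 6 were higher and 15 lower than in cortex, while 33.8% of all genes tested were called higher and 35.3% lower. The higher ones were Ndufb2 (1.00 ± 0.110), Ndufab1 (0.50 ± 0.078), Ndufs1 (0.36 ± 0.053), Ndufc2 (0.31 ± 0.095), Ndufv3 (0.26 ± 0.083) and Ndufs4 (0.20 ± 0.071). Ndufab1 is the mitochondrial acyl carrier protein, which also serves fatty acid and lipoic acid synthesis. The largest decreases were those of Ndufb9 (-0.55 ± 0.057), Ndufa8 (-0.48 ± 0.059), Ndufa2 (-0.47 ± 0.125), Ndufs6 (-0.47 ± 0.077) and Ndufb6 (-0.38 ± 0.128). Ndufab1 ranged from 27.2 to 34.2 in cerebellum and from 21.5 to 24.3 in cortex, and Ndufb9 from 17.1 to 19.7 and from 27.0 to 29.6, so neither pair of groups overlapped. Of the core subunits, Ndufs8 was lower (-0.20 ± 0.077). Ndufv1, Ndufv2, Ndufs3 and Ndufs7 lay between 0.00 and 0.09 and did not pass the test. All protein-coding genes with a longest transcript under 1000 bases had a median of -0.25 in this comparison, and the 17 members among them -0.26. In genes of 4000 bases or more the median was 0.10, and 0.46 in the 2 members there. The part of transcript length in the members' differences was not tested.

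Hippocampus and cortex were the most alike. Only 5 members passed the test there, 2 higher and 3 lower in hippocampus, against 16.8% and 16.7% of all genes tested. Ndufs1 (0.24 ± 0.053) and Ndufa10 (0.15 ± 0.056) were higher, and Ndufs6 (-0.38 ± 0.077), Ndufa2 (-0.34 ± 0.125) and Ndufa13 (-0.20 ± 0.078) were lower. The value for Ndufb2 was 0.24 ± 0.110, which did not pass. In cerebellum against hippocampus 5 members were higher and 9 lower, against 33.5% and 34.8% of all genes tested. Ndufb2 (0.76 ± 0.109) and Ndufab1 (0.48 ± 0.078) led again, followed by Ndufv3 (0.29), Ndufc2 (0.22) and Ndufs4 (0.18). Ndufb9 (-0.49 ± 0.057) and Ndufa8 (-0.46 ± 0.059) fell most, followed by Ndufb4, Ndufa10 and Ndufb6 (each -0.37). All protein-coding genes under 1000 bases had a median of -0.15 in cerebellum against hippocampus, and the 17 members among them -0.13. In Gnb5-/- mice without the libraries that stood apart, 9 of the 21 members called between cerebellum and cortex, 2 of the 5 between hippocampus and cortex and 11 of the 14 between cerebellum and hippocampus were called in the same direction. In that order 28.2%, 14.1% and 30.8% of all genes tested were called higher in these mice and 36.6%, 16.7% and 36.9% lower, while 9, 2 and 13 of the 35 members were called. Among the 9 were Ndufb2 (1.00 ± 0.119), Ndufab1 (0.47 ± 0.0715) and Ndufb9 (-0.46 ± 0.068).

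Levels can be compared between members only per length, for which TPM values (counts divided by the length of all annotated exons of a gene, scaled to the same total in every library) were computed. In Gnb5+/+ ventricles the highest members were Ndufb10 (612 ± 50.1 TPM, SD, n = 6), Ndufa8 (541 ± 76.7) and Ndufs6 (373 ± 44.5). In atria they were Ndufb10 (623 ± 98.1), Ndufa8 (470.5 ± 54.9) and Ndufa13 (419 ± 72.7), and Ndufs6 ranked 12th of 35. In cerebellum Ndufc2 came first (312.5 ± 11.4), followed by Ndufb11 (289 ± 8.49) and Ndufb10 (284 ± 12.8). In hippocampus and cortex Ndufa8 (289.9 ± 7.35 and 299 ± 17.4) was followed by Ndufb11 (261.5 ± 9.004 and 268 ± 16.1) and Ndufb10 (253 ± 9.74 and 267.5 ± 19.0). Ndufb11 and Ndufb10 differed by less than their SD in all 3 brain regions, as did Ndufs6 and Ndufb11 (372 ± 128) in ventricles.

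The lowest 3 members in every tissue were Ndufb2, Ndufb4 and Ndufab1. Ndufb2 was at 4.07 ± 0.974 TPM in ventricles and 38.4 ± 4.06 in cerebellum, Ndufb4 at 12.9 ± 4.17 and 13.5 ± 0.825, and Ndufab1 at 29.7 ± 6.48 and 28.8 ± 2.17. Their places depend on the annotation, as their exons add up to more bases than a single transcript uses, and on the counting of reads that align to one place only. Ndufb4, Ndufab1, Ndufs6 and Ndufa11 have processed pseudogenes of a like name, which held at most 11 counts in a library. Reads shared with such copies would be lost from the member, so these levels are uncertain. With the length of the principal transcript instead, Ndufb10 ranked first in all 5 tissues, and Ndufb2, Ndufb4, Ndufab1 and Ndufc1 took the last 4 places.

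The summed level per length showed how the choice of total bears on the heart. Over all genes it was 7433 ± 1627 TPM in ventricles and 6611 ± 783 in atria, which overlapped, and 4644 ± 86.2 in hippocampus, 4903 ± 223 in cortex and 4911.5 ± 78.2 in cerebellum. Over protein-coding genes outside the mitochondrial genome it was 20498 ± 1162 in ventricles and 13644 ± 1137 in atria, with no overlap, and 5615 ± 114 to 5933 ± 235 in the brain regions. Mitochondrial transcripts thus took up the larger share of the total in the tissue with the higher complex I level.

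Of the 35 genes 32 had a promoter sequence from RefSeq (GRCm38.p6), from 250 bases before to 50 bases after the start of the gene. These windows were searched on both strands for letters bound by factors known for mitochondrial genes. The NRF1 letters CGCATGCG were in 2 of 32 members (6.25%) and in 1.91% of all 27025 promoters. The ERR letters AAGGTCA were in 3 (9.38% against 4.66%), the YY1 letters AAGATGG in 7 (21.9% against 6.48%), the ETS letters CCGGAAG in 4 (12.5% against 9.12%), the SP1 letters GGGCGG in 15 (46.9% against 35.9%), and the MEF2 letters TATTTATA in 0 (against 1.77%). None of these motifs contains another. The windows of 7 members held none of them, among them Ndufv1, Ndufb10 and Ndufc2. The median GC content was 59.15% in the members and 52.7% in all promoters.

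Promoter stretches before the start are shown for the member with the largest heart difference, for the member lower in heart and for a member with the NRF1 letters, with motif letters in capitals. Ndufs6 (chr13:73328543-73328732, minus strand) holds none of the letters in the stretch shown (its YY1 letters lie outside it), Ndufb2 (chr6:39592315-39592564, plus strand) holds the ERR letters 181 bases before its start, and Ndufa11 (chr17:56717642-56717761, plus strand), whose atria and ventricles overlapped, holds the NRF1 letters 59 bases before its start.
Ndufs6: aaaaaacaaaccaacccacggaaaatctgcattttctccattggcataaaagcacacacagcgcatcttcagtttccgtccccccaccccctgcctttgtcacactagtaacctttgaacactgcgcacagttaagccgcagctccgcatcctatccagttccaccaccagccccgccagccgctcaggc
Ndufb2: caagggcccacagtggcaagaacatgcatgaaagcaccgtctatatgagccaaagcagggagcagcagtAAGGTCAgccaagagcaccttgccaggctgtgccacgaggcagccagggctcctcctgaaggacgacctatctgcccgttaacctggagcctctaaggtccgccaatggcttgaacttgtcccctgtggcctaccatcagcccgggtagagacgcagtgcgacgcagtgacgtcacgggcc
Ndufa11: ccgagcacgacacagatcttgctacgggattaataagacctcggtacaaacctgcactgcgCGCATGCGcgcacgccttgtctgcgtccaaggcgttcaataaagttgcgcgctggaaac
A match of letters is not a site of binding, and these stretches differ in length.

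Other genes of oxidative phosphorylation went in the same direction between tissues. Of the mitochondrially encoded complex I subunits, 6 of 7 could be tested. All 6 were higher in heart than in brain, from mt-Nd6 (1.82) to mt-Nd5 (4.50), and 5 of the 6 were lower in atria than in ventricles, led by mt-Nd1 (-1.05). Of 16 complex I assembly factors 14 were higher in heart, from Ndufaf5 (-0.05, not called) to Timmdc1 (1.93), and 14 were lower in atria, led by Ndufaf6 (-0.90). All 4 genes of complex II and all 9 nuclear genes of complex III were higher in heart and lower in atria, led in heart by Sdhb (3.12) and Uqcrb (3.73). Of 14 nuclear genes of complex IV 12 were higher in heart and 2 lower, from Cox6a1 (-0.66), a form known outside heart and skeletal muscle, to Cox8b (9.90), a form known in heart and skeletal muscle. In atria 10 of the 14 were lower, led by Cox8b (-1.32). Of 15 nuclear genes of complex V all were higher in heart and 14 were lower in atria, from Atp5g3 (-1.11) to Atp5g2 (0.35, not called). Of 10 regulators of mitochondrial biogenesis 9 were higher in heart, led by Perm1 (8.53), and Nrf1 was lower (-0.33). In cerebellum against cortex all 10 regulators were higher, led by Esrrg (1.96), while 5 of the 6 mitochondrially encoded subunits were lower. The median of the nuclear complex I genes lay at -0.16 in that comparison.

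Loss of Gnb5 was compared with the wild type within each tissue. None of the 35 members passed the threshold in Gnb5-/- against Gnb5+/+ mice in any of the 5 tissues, nor under DESeq2, with or without the libraries that stood apart. At an unadjusted p under 0.05 edgeR gave 4 members in atria, 0 in ventricles, 1 in cerebellum, 1 in hippocampus and 10 in cortex, where 8.15%, 4.78%, 5.85%, 7.7% and 7.39% of all genes tested had such a p. DESeq2 gave 5, 1, 5, 1 and 15 members, and 5.3%, 3.27%, 5.09%, 4.96% and 6.48% of all genes. At the adjusted threshold edgeR called 0.253% in atria, 0.188% in ventricles, 0.0817% in cerebellum, 0.165% in hippocampus and 0.0557% in cortex of all genes tested, so few genes of any kind were called. No list of other oxidative phosphorylation genes or regulators held a called gene in these comparisons.

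In atria the median log2 difference of the members was -0.11 and 27 of 35 lay below 0, with none called. The smallest p belonged to Ndufa10 (-0.20 ± 0.068, adjusted p = 0.393), a subunit related to nucleoside kinases. Its normalized count was 356 to 426 in Gnb5-/- atria (median 369), 369 to 444 in Gnb5+/- atria (median 429) and 387 to 487 in Gnb5+/+ atria (median 448). The 3 genotypes overlapped. Ndufs6 (-0.28 ± 0.121, adjusted p = 0.543) and Ndufa8 (-0.19 ± 0.086, adjusted p = 0.562) came next. Ndufs6 was at 66.2 to 93.2 in Gnb5-/- atria and 74.7 to 113 in Gnb5+/+ atria. The summed level of 5 adipocyte markers was 12.8 to 328 in Gnb5-/- atria (median 53.2) and 12.8 to 37.2 in Gnb5+/+ atria (median 22.7), with none of the 5 at 0 in all libraries of a group, and none of them was called. The sum of 5 cardiomyocyte markers was 36218 to 46088 in Gnb5-/- atria (median 38975) and 41396 to 46272 in Gnb5+/+ atria (median 44349), that of 4 macrophage markers 229 to 304 (median 269) and 205 to 263 (median 231), and that of 4 neuronal markers 145 to 282 (median 186) and 234 to 329 (median 257), none of them called and none at 0 in all libraries of a group. Of the 4 neuronal markers 3 had a median normalized count under 1 in both groups, so their sum rested mainly on the remaining gene. The sum of 3 ventricular muscle markers was 114 to 440 in Gnb5-/- atria (median 210) and 73.1 to 1334 in Gnb5+/+ atria (median 380). In Gnb5+/+ ventricles, where the complex I genes were higher, that sum was 13979 to 14736. The part of these cells, or of ventricular tissue, in the atrial values was not tested.

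In ventricles the median difference between Gnb5-/- and Gnb5+/+ mice was -0.00, with 17 members above 0 and 18 below it. The smallest p values were those of Ndufs1 (-0.13 ± 0.070, adjusted p = 1.00), Ndufb2 (-0.21 ± 0.156) and Ndufs4 (-0.12 ± 0.117). Ndufs1 ranged from 925 to 1062.5 in Gnb5-/- ventricles and from 1004.5 to 1142.9 in Gnb5+/+ ventricles, so the groups overlapped. Without Gnb5+/- replicate 4, which enters the same fit, Ndufs1 was the 1 member at an unadjusted p under 0.05 (adjusted p = 0.733), beside 6.52% of all genes, and DESeq2 also gave 1, beside 4.12%. In hippocampus, where no library stood apart, the median was 0.00 and all 35 differences lay between -0.14 and 0.07. The first of them by p was Ndufa6 (-0.09 ± 0.040, adjusted p = 0.644), followed by Ndufs8 (0.07 ± 0.032) and Ndufa12 (-0.14 ± 0.076). This was the narrowest range of the 5 tissues.

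In cortex all 35 differences were above 0, with a median of 0.88 and a range from 0.11 for Ndufb2 to 1.51 for Ndufa2. Ndufc2 (1.43 ± 0.558), Ndufa5 (1.40 ± 0.589) and Ndufc1 (1.25 ± 0.531) had the smallest p, each with an adjusted p = 0.474. These values rested on the libraries that stood apart. The median was 0.13 without Gnb5-/- replicate 3, 0.88 without replicate 5, and -0.05 without both, when 7 of 35 lay above 0. At an unadjusted p under 0.05 the 10 members became 0 without replicate 3 (4.74% of all genes) and 1 without both (4.79%), and the 15 of DESeq2 became 1 without both (3.14%). Ndufs6 was at 130 in replicate 3 and 32.9 in replicate 5, against 16.4 to 22.1 in the other Gnb5-/- cortex libraries and 16.7 to 22.7 in the Gnb5+/+ ones. Without both, Ndufb4 was the only member whose groups did not overlap, at 4.06 to 4.69 in Gnb5-/- and 4.95 to 5.53 in Gnb5+/+ cortex, a difference of -0.24 ± 0.079 (adjusted p = 0.941). Among all genes 0.506% did not overlap in that direction.

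In cerebellum 34 of 35 differences were above 0, with a median of 0.61 over all libraries and 0.10 without Gnb5-/- replicate 2. At an unadjusted p under 0.05 there were 1 member with that library and 9 without it, while the share of all genes with such a p also rose, from 5.85% to 11.7%. DESeq2 gave 5 members with it and 9 without it, and 7.23% of all genes without it. None of the members passed the adjusted threshold in either case. Without that library all protein-coding genes with a longest transcript under 1000 bases still had a median of 0.06, and the 17 members among them 0.12. In genes of 4000 bases or more the median was -0.02, and 0.02 in the 2 members there. The part of transcript length in the remaining differences was not tested. The smallest p with all libraries was that of Ndufc1 (0.84 ± 0.377, adjusted p = 0.583), followed by Ndufc2 (0.79 ± 0.365) and Ndufs6 (0.78 ± 0.361). Without the library the first were Ndufc2 (0.15 ± 0.045, adjusted p = 0.243), Ndufs7 (0.12 ± 0.036, adjusted p = 0.243) and Ndufc1 (0.18 ± 0.059, adjusted p = 0.276). Ndufs7 ranged from 39.6 to 42.7 in Gnb5+/+ cerebellum and from 43.2 to 46.7 in the other 5 Gnb5-/- libraries, with replicate 2 at 183. It was the only member whose groups did not overlap, with or without that library, which held in that direction for 0.543% of all genes tested.

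**Figure D5:**
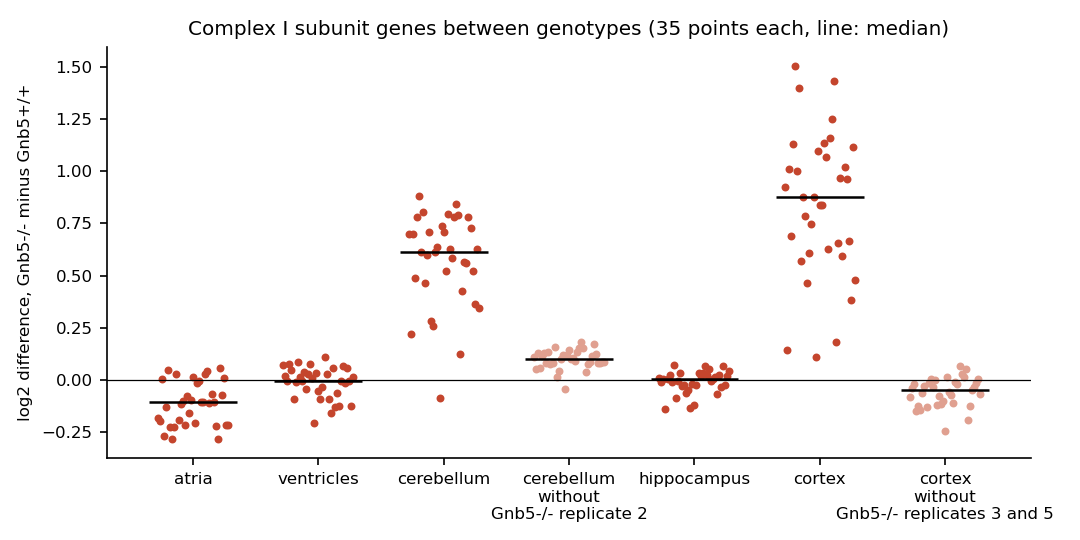
Log2 differences between Gnb5-/- and Gnb5+/+ mice for each of the 35 genes (points) and their median (line) in 5 tissues, with paler points for the fits without the libraries that stood apart. The medians of 0.61 in cerebellum and 0.88 in cortex move to 0.10 and -0.05 without those libraries, and no point passed the adjusted threshold.

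The heterozygotes were compared in the heart. In Gnb5+/- against Gnb5+/+ mice 0 members were called, with 0 at an unadjusted p under 0.05 in atria (median -0.05) and 2 in ventricles (median 0.15), where 7.22% and 4.84% of all genes had such a p, and edgeR called 0.0124% and 0.0202% of all genes tested. In atria Ndufa8 (-0.15 ± 0.086, adjusted p = 0.751), Ndufa5 (-0.21 ± 0.137) and Ndufs6 (-0.18 ± 0.120) had the smallest p. In ventricles they were Ndufs6 (0.32 ± 0.147, adjusted p = 0.961), Ndufb10 (0.32 ± 0.149) and Ndufab1 (0.24 ± 0.116). Without Gnb5+/- replicate 4 the median in ventricles was -0.01 and again 2 members had an unadjusted p under 0.05 (6.85% of all genes), with Ndufs7 (-0.34 ± 0.151) and Ndufa11 (-0.21 ± 0.097) first. In Gnb5-/- against Gnb5+/- mice 0 members were called as well, with 1 at an unadjusted p under 0.05 in atria (median -0.06) and 3 in ventricles (median -0.15, and 0.03 without that library). There 4.86% and 8.79% of all genes had such a p, and 0.0494% and 0.0874% were called. Without that library 2 members had an unadjusted p under 0.05 in ventricles, beside 12.5% of all genes. Ndufa10 had the smallest p in atria (-0.14 ± 0.068, adjusted p = 1.00), before Ndufa9 (-0.10 ± 0.0715) and Ndufs5 (-0.20 ± 0.154). Ndufs1 had it in ventricles (-0.19 ± 0.070, adjusted p = 0.466), before Ndufv2 (-0.28 ± 0.128) and Ndufb5 (-0.22 ± 0.102). DESeq2 called no member in these comparisons. At an unadjusted p under 0.05 it gave 0 and 2 members in Gnb5+/- against Gnb5+/+ atria and ventricles (4.71% and 3.33% of all genes), and 1 and 3 in Gnb5-/- against Gnb5+/- (3.29% and 5.51%). Without Gnb5+/- replicate 4 it gave 3 members in both of these ventricular comparisons (4.21% and 7.43% of all genes). The comparisons of a tissue share libraries, so they are not independent of each other.

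Whether the Gnb5-/- difference itself differed between tissues was tested with interaction terms. No member was called. For ventricles against atria the median of the members was 0.12, with 0 at an unadjusted p under 0.05 (4.26% of all genes), and 0.00982% of all genes tested were called. DESeq2 also gave 0 (2.67% of all genes). Ndufa10 had the smallest p (0.22 ± 0.128, adjusted p = 1.00). Without the libraries that stood apart the median was again 0.12. There 8 members had an unadjusted p under 0.05, beside 6.82% of all genes. Ndufa10 (0.22 ± 0.073, adjusted p = 0.360), Ndufa5 (0.38 ± 0.129) and Ndufs6 (0.36 ± 0.128) came first. The libraries left out of this fit were all from brain, so the heart libraries compared were the same. Both fits estimate 1 spread over all tissues. For brain against heart the median was 0.49 with 27 members at an unadjusted p under 0.05, beside 14.1% of all genes. DESeq2 gave 26 members, beside 8.53%. At the adjusted threshold 0.329% of all genes tested were called, and Ndufs1 had the smallest p (0.21 ± 0.065, adjusted p = 0.183). Without those libraries the median was 0.06, and 6 members had an unadjusted p under 0.05, beside 10.5% of all genes.

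Within a group the members often moved together from mouse to mouse. In 21 of 72 libraries, and in 17 of the 68 that did not stand apart, 30 or more of the 35 members lay on the same side of the group mean. In Gnb5+/- atria replicate 4 and Gnb5-/- atria replicates 4 and 5 all 35 lay below it, by a median of 0.28, 0.27 and 0.17 on the log2 scale. The same libraries had the lowest values among the atria for all protein-coding genes under 1000 bases, at -0.18, -0.16 and -0.13 from the tissue median. In each of the 17 libraries such genes deviated from the tissue median in the direction in which most members deviated from the group mean. Examples are Gnb5+/+ atria replicates 1 (-0.12) and 4 (0.08). No such count was made for other genes, and the part of this tilt in the members' shift was not tested. Other libraries split the members. Ndufc1 lay highest and Ndufs5 lowest in Gnb5+/+ ventricles replicate 6 (0.93 and -0.51 from the group mean, log2). The same held in Gnb5-/- ventricles replicate 3 (0.84 and -0.60), Gnb5+/- atria replicate 2 (1.05 and -0.69) and Gnb5-/- atria replicate 1 (0.97 and -0.45). Each had the lowest mitochondrially encoded share of its group (28.1%, 26.5%, 17.5% and 14.1% in that order). In Gnb5+/+ atria replicate 2, Ndufv2 (355 against 194 to 267 in the others) and Ndufs1 (735) were the highest of the group and Ndufs7 (77.6 against 126 to 153) and Ndufv1 (296 against 391 to 431) the lowest. Core subunits of the same enzyme were thus at opposite ends in the same library. The member with the smallest spread, as a median SD over the 12 groups, was Ndufb5 (0.059 on the log2 scale), followed by Ndufs3 (0.065), and the one with the largest was Ndufa12 (0.216).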

How the data were processed

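RNA from 72 tissue samples had been sequenced as stranded single-end libraries. Per the labels, adapters were trimmed with cutadapt 1.8 and reads aligned with STAR 2.5.3a to GRCm38, and the authors deposited raw counts per gene from HTSeq 0.9.1, unnormalized, 1 file a library. The strand setting is not given in the sources used here. Rows naming no gene were left out of library sizes. Reads on no annotated gene were 2.85% to 17.0%.

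Differences were tested with edgeR 4.0.16 (quasi-likelihood, TMM, filterByExpr with a count minimum of 10, Benjamini-Hochberg adjustment over all genes tested, threshold 0.05), with DESeq2 1.42.0 as an alternative, and blocks entered as terms of the edgeR design. Genotypes were fitted within a tissue, and tissues within a genotype. Lengths came from GENCODE M21. The members, lists, tests and named genes (core subunits, the 5 highest and lowest called differences or all where 10 or fewer, the 3 smallest p between genotypes, members whose genotype groups do not overlap, the members farthest from the median, the 3 highest and lowest TPM) were chosen with earlier results of these data known. Replicate numbers mark the same mouse across tissues but different mice across genotypes, where correlations of same-numbered libraries were -0.333 to 0.299, so genotypes were not paired. Scripts were tested on simulated data.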

Additional observations from a re-analysis of the deposited data

Results flagged for a closer look

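In groups of 6 libraries, a library was singled out by its gap to the nearest other, relative to the group's range. The gap had to be larger than Dixon's critical value for 6 samples, which chance gives in about 1 in 20 groups. Of 61 groups tested in this way, 17 held such a library. The summed normalized count of the 35 genes was singled out as high in Gnb5+/- ventricles (16127, next 9649), Gnb5-/- cerebellum (4018, next 1423.5) and Gnb5-/- cortex (5949.7, next 2179.3), and as low in Gnb5+/+ cortex (1251.1, next 1372).

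The libraries that stood apart also held the high values of single genes. In Gnb5+/- ventricles these were Ndufa13 (759), Ndufs6 (523) and Ndufb2 (23.6). In Gnb5-/- cerebellum they were Ndufs7 (183), Ndufs1 (179) and Ndufs6 (65.6), while Ndufb2 was low (26.3). In Gnb5-/- cortex they were Ndufs6 (130.2), Ndufb2 (27.4) and Ndufb4 (26.7). Outside these libraries, Ndufb2 was high in 1 library of Gnb5-/- ventricles (21.9), Ndufs6 in 1 of Gnb5+/+ cerebellum (15.8), and Ndufs1 was low in 1 of Gnb5+/+ hippocampus (115.5).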

How the results depend on the processing

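No member was called between genotypes under any alternative run. The libraries that stood apart were left out as alternatives chosen with the data seen. Without replicate 4 the median of the members was -0.0136 in Gnb5+/- against Gnb5+/+ ventricles (DESeq2 -0.0141) and 0.0274 in Gnb5-/- against Gnb5+/- (DESeq2 0.0264). In cerebellum it was 0.1017 without Gnb5-/- replicate 2 (DESeq2 0.0999). In cortex it ranged from 0.1301 to 0.8799 without 1 of the libraries that stood apart (DESeq2 without replicate 3 0.1247) and was -0.0509 without both (DESeq2 -0.0506), where Ndufa5 (-0.0288, DESeq2 -0.0284), Ndufc1 (-0.0196 in both) and Ndufb4 (-0.2432, DESeq2 -0.2426) changed sign. Brain against heart gave 0.0574 without them.

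With the replicate number as a block, the median was 0.3791 in cerebellum and 0.4531 in cortex. The block changed no call, and these numbers do not pair the genotypes. With the mouse as a block, tissue counts were 35, 35, 21, 5 and 14, as without it.

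Between atria and ventricles, library totals alone gave 23 calls, a median of -0.364 and Ndufa13 at 0.13, and totals without mitochondrially encoded genes -0.6044. Gnb5-/- mice gave 23 calls and -0.9004 (-0.9003 without the libraries that stood apart). Between heart and brain the median was 2.3248 with upper-quartile factors, 1.3843 with library totals, 1.8877 with totals without mitochondrially encoded genes and 1.8443 in Gnb5-/- mice. Between cerebellum and cortex it was -0.2321 with RLE factors, -0.2302 with DESeq2, -0.3827 with 3 calls in Gnb5-/- mice (Ndufc2 -0.3346), and -0.0057 with 9 calls there without those libraries. Between hippocampus and cortex 3 members were called with no filter, 16 in Gnb5-/- mice (median -0.8824) and 2 there without those libraries. Between cerebellum and hippocampus the median was -0.0969 with RLE factors, 0.0183 with library totals, -0.0005 with totals without mitochondrially encoded genes, -0.0959 with DESeq2, 0.4868 with 3 calls in Gnb5-/- mice (Ndufb9 0.1609, Ndufa8 0.1522, Ndufb4 0.3907 and Ndufb6 0.3275), and 0.0145 there without those libraries. Where no value shows the cause, the cause was not tested.

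Summed TPM with the longest transcript was 7717.9 in atria, 5108.3 in cerebellum and 4834.9 in hippocampus. With the principal transcript it was 8586.2 in atria, 10050 in ventricles, 5341 in cerebellum, 5371.2 in cortex and 5074.6 in hippocampus. Over protein-coding genes outside the mitochondrial genome it was 13644, 20498, 5741.9, 5933.1 and 5615 in the same order.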

Other observations

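Cortex libraries of both genotypes held a low set. Gnb5+/+ replicate 5 and Gnb5-/- replicates 4 and 6 had summed normalized counts of 1251.1, 1245.9 and 1265.7, with 30, 31 and 30 of the 35 members below their group mean. Ndufs6 was at 16.7, 16.4 and 17.1 in them and at 20.4 to 22.7 in the other cortex libraries that did not stand apart, and Ndufa13 at 44.6, 44.4 and 45.4 against 55.3 to 58.2. The same libraries had the lowest values among the cortex libraries for all protein-coding genes with a longest transcript under 1000 bases, at -0.18, -0.16 and -0.15 (log2) from the tissue median against -0.01 or above in the others, and the part of this in the low set was not tested. The libraries were singled out after their values were seen.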
